A study of Homo sapiens with 22 samples.

Results

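The genes described here are 10 of the 60675 gene rows measured: the class 3 semaphorins SEMA3A, SEMA3B, SEMA3C, SEMA3D and SEMA3F, the neuropilins NRP1 and NRP2, and the plexins PLXNA1, PLXNB2 and PLXND1. They were taken by name, and the set was selected on the fold changes against WT in which SEMA3F was higher in the KDAC6H611A line and after both inhibitors. Their values in those groups are therefore a description with no test, and tests are given for the comparisons that the choice did not use. RNA-seq was done on HT1080 cells, a human fibrosarcoma line, to ask what loss of lysine deacetylase (KDAC) activity does to the transcriptome. Untreated wild-type (WT) cells gave 4 libraries. KDAC6H216A and KDAC6H611A cells carry a histidine-to-alanine change in a different catalytic domain of the endogenous KDAC6 gene (HDAC6), KDAC8H143A cells carry such a change in the endogenous KDAC8 gene (HDAC8), and each of these 3 untreated mutant lines gave 4 libraries. WT cells treated for 2 days with 1 µM Tubastatin A, a KDAC6 inhibitor, or with 5 µM PCI-34051, a KDAC8 inhibitor, gave 3 libraries each. The KDAC6H216A cells were a pool of independently edited lines, so a change in that group is an average over lines. The number of lines behind KDAC6H611A and KDAC8H143A and any vehicle in the control cells are not given in the sources used here, so clone or vehicle and the named change cannot be told apart.

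Class 3 semaphorins are secreted guidance proteins that were first known for repelling growing axons and that also act on endothelial and tumor cells. Most of them bind a neuropilin, which has a short cytoplasmic tail, while the paired plexin carries the signal inward through its GTPase-activating domain, lowering integrin adhesion and remodeling the cytoskeleton. Neuropilins are also co-receptors for vascular endothelial growth factors, and furin-type proprotein convertases cut class 3 semaphorins, which alters their activity. SEMA3A signals mainly through NRP1, SEMA3F mainly through NRP2, and SEMA3B and SEMA3C through either neuropilin. SEMA3B and SEMA3F lie in a stretch of the short arm of chromosome 3 that is often lost in lung cancer and have been studied as tumor suppressors. PLXNA1 pairs with neuropilins, PLXND1 is a receptor of vascular patterning, and PLXNB2 binds class 4 semaphorins without a neuropilin.

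Positions are on GRCh38 with GENCODE 44 gene limits, and all 10 genes are protein-coding. SEMA3F (ENSG00000001617) is at chr3:50155045-50189075 and SEMA3B (ENSG00000012171) at chr3:50267558-50277546, both on the plus strand and 78.5 kb apart. PLXNA1 (ENSG00000114554) is at chr3:126982693-127037389 on the plus strand and PLXND1 (ENSG00000004399) at chr3:129555214-129606676 on the minus strand. SEMA3C (ENSG00000075223, chr7:80742538-80922359), SEMA3A (ENSG00000075213, chr7:83955777-84492724) and SEMA3D (ENSG00000153993, chr7:84995553-85187056) are all on the minus strand of chromosome 7. NRP1 (ENSG00000099250) is at chr10:33177492-33336262 and PLXNB2 (ENSG00000196576) at chr22:50274979-50307646, both on the minus strand, and NRP2 (ENSG00000118257) is at chr2:205681990-205798133 on the plus strand. SEMA3F-AS1, an antisense transcript, covers 110 exonic bases of SEMA3F, 2.28% of its exons. Whether the counting used strand is not given in the sources used here, so reads from those bases cannot be assigned to either gene. SEMA3F-AS1 was at 3.78 ± 0.678 CPM (counts scaled by library size; SD, n = 4) in WT, well below SEMA3F.

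The sequences upstream of SEMA3F and SEMA3B are shown because both neighboring genes were higher in the KDAC6H611A line and after both inhibitors, and those of PLXND1 and SEMA3D because they moved in opposite directions in KDAC8H143A cells. Each is read 5′ to 3′ on the strand of its gene and ends at the first base outside the GENCODE gene, within the 250 bases before the RefSeq start site nearest to it (GRCh38.p14). SEMA3F is shown from chr3:50154808-50155044, SEMA3B from chr3:50267402-50267557, PLXND1 from chr3:129606677-129606926 and SEMA3D from chr7:85187057-85187306. Capitals mark GC boxes, the letters GGGCGG or CCGCCC on the printed strand.
SEMA3F: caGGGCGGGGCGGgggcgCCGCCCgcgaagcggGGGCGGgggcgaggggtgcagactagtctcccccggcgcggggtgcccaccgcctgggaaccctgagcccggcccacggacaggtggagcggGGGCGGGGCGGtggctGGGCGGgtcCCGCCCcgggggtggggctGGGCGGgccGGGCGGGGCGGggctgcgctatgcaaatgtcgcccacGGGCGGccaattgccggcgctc
SEMA3B: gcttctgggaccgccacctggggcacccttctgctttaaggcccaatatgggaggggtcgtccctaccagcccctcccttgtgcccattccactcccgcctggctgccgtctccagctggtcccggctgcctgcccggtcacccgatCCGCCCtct
PLXND1: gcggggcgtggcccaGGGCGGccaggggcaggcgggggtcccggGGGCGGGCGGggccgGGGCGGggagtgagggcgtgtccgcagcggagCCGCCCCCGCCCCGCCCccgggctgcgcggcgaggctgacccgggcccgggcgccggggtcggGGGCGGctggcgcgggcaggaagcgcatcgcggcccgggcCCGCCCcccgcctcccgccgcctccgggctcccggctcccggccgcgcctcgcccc
SEMA3D: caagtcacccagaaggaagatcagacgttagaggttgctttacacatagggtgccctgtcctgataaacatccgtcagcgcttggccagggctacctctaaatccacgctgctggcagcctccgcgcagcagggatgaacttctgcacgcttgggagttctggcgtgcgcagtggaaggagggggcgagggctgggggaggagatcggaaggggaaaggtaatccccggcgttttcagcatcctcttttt

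With overlapping matches counted separately, the printed stretch held 12 GC boxes for SEMA3F, 1 for SEMA3B, 9 for PLXND1 and 0 for SEMA3D. The stretches of the neighbors SEMA3F and SEMA3B are of unlike length, 237 and 156 bases, and each held 1 CCAAT on either strand. In the full 250-base windows nearest to their GENCODE starts, SEMA3F held 12 GC boxes and SEMA3B 4. SEMA3F has 3 annotated starts and SEMA3B 5. Of 35116 RefSeq promoter windows of 250 bases, 42.6% held at least 1 GC box and 32.0% at least 1 CCAAT. Entries were present for 8 of the 10 genes, all but NRP1 and SEMA3A. In the window nearest to each GENCODE start, none of the 8 held TATAAA, the E-box CACGTG or the AP-1 letters TGACTCA on either strand, which 10.7%, 6.3% and 4.2% of all windows held. A match in these windows is a description of letters and not of factor binding.

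Total expected counts were 5248960 to 8998521 in WT, 6837484 to 12752476 in both KDAC6 mutant lines, 11010779 to 17170493 in KDAC8H143A and 24315844 to 29862658 in the inhibitor groups, so low genes were measured more precisely in the last. The count share of the mitochondrial rRNAs MT-RNR1 and MT-RNR2 differed with the groups: 20.8% to 23.9% in WT, at most 0.0259% in KDAC8H143A and at most 0.00541% in both inhibitor groups. Within the KDAC6 mutant lines it set a single library apart each time, KDAC6H216A replicate 1 at 0.195% (its group reached 15.1%) and KDAC6H611A replicate 4 at 0.173% (its group reached 38.0%), and fits without these libraries are given beside the results. The part of this share in any result was not tested. HDAC6 was lower in KDAC6H216A (6.37 CPM) than in WT (14.2 CPM), a log2 difference of -1.25 ± 0.18 (SE; edgeR adjusted p = 0.0054), and neither HDAC6 nor HDAC8 passed in the other comparisons with WT. Between the KDAC6 mutants, HDAC6 was higher in KDAC6H611A (13.2 CPM) by 1.13 ± 0.18 on the log2 scale (edgeR adjusted p = 0.0019). The part of this difference in the members' values was not tested. Of 6 mesenchymal markers, which the labelled fibrosarcoma should express, 4 were at 1 CPM or more in WT, with VIM at 3896 CPM, and S100A4 (0.631 CPM) and THY1 (0.494 CPM) were not. The epithelial markers EPCAM, CDH1 and KRT19 and the leukocyte markers PTPRC and CD3E had no count in WT, where 3 counts, the limit that a count of 0 allows, are 0.333 to 0.572 CPM. Of 3 neuronal markers, 2 were at 1 CPM or more in WT, SNAP25 at 6.41 CPM and SYT1 at 1.80 CPM, and RBFOX3 (0.338 CPM) was not. Of the 4 endothelial markers PECAM1, CDH5, VWF and TEK, 0 reached 1 CPM, with a summed level of 1.24 to 1.59 CPM.

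All 10 genes were detected in every library and passed the filter on low counts in all 7 comparisons. In WT, 4 of the 5 receptors had higher levels per kb of exon than every ligand, and PLXND1 lay among the ligands. NRP1 was at 48.2 ± 1.78 CPM per kb (SD, n = 4), PLXNA1 at 37.5 ± 1.74, PLXNB2 at 32.7 ± 2.55 and NRP2 at 12.8 ± 0.693. The best expressed ligands, SEMA3F at 5.94 ± 0.363 CPM per kb and SEMA3C at 5.16 ± 0.764, differed by about their spread. PLXND1 followed at 3.85 ± 0.292 and SEMA3A at 1.32 ± 0.032, and SEMA3B at 0.629 ± 0.0753 and SEMA3D at 0.56 ± 0.0689 were indistinguishable within their spread. SEMA3B rested on 20 to 30 counts per WT library and SEMA3D on 26 to 38, so their values carry more counting error than those of the receptors. Below, levels are in CPM scaled over all 22 libraries, while each log2 fold change is fitted on the libraries of its own comparison, and the ratio of printed levels differs from it by at most 0.12 on the log2 scale. Bulk RNA cannot tell fewer expressing cells from less RNA per cell.

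SEMA3F, the repellent ligand of NRP2, was highest in KDAC6H611A cells. The WT libraries were at 26.1, 29.5, 29.5 and 29.7 CPM and the KDAC6H611A libraries at 65.3, 46.7, 68.6 and 70.9 CPM. The 3 libraries with Tubastatin A were at 53.3, 47.2 and 53.6 CPM and those with PCI-34051 at 46.8, 47.2 and 45.0 CPM. Every library of these 3 groups lay above every WT library, which is the pattern the gene was chosen for. The log2 fold changes against WT were 1.16 ± 0.11 (SE) in KDAC6H611A, 0.72 ± 0.06 with Tubastatin A and 0.59 ± 0.06 with PCI-34051. Without KDAC6H611A replicate 4 that group's mean was 60.2 ± 11.8 CPM (SD, n = 3) in place of 62.9 ± 11.0 CPM. The other mutant lines did not stand apart from WT. KDAC6H216A libraries were at 20.03, 31.2, 32.5 and 37.4 CPM and KDAC8H143A libraries at 25.0, 26.4, 28.0 and 24.7 CPM, both overlapping WT. The order of means was KDAC6H611A, Tubastatin A, PCI-34051, KDAC6H216A, WT and KDAC8H143A. The KDAC6H611A range overlapped those of both inhibitor groups, and the last 3 groups overlapped one another. The antisense SEMA3F-AS1 had levels of 4.12 ± 1.07 CPM (SD, n = 4) for KDAC6H611A and 2.16 ± 0.292 CPM (n = 3) for Tubastatin A, against 3.78 ± 0.678 CPM for WT.

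**Figure D1:**
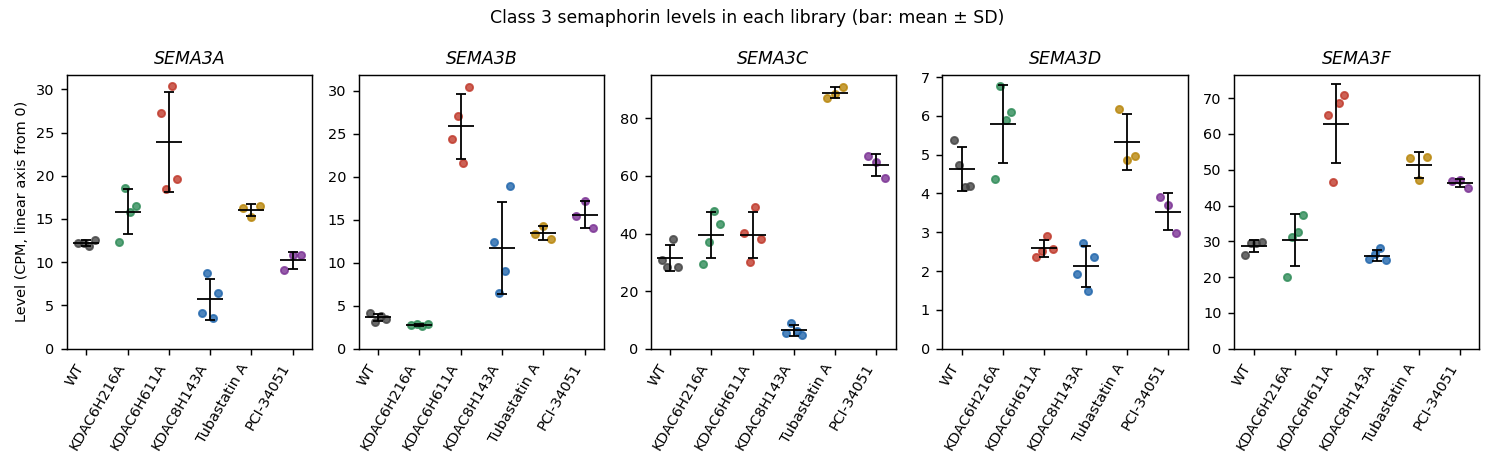
Level of each class 3 semaphorin in CPM (linear axis from 0) in every library, by group, with points for libraries and bars for the mean ± SD. SEMA3F and SEMA3B were above all WT libraries in KDAC6H611A and both inhibitor groups, and SEMA3C was highest with Tubastatin A (87.2 to 90.9 CPM) and lowest in KDAC8H143A (4.65 to 9.01 CPM).

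SEMA3B, the neighbor of SEMA3F, stood far above WT in 4 groups. The WT libraries were at 4.14, 3.12, 3.79 and 3.47 CPM, those of KDAC6H216A at 2.75, 2.88, 2.61 and 2.905 CPM and those of KDAC6H611A at 24.4, 27.05, 21.6 and 30.5 CPM. KDAC8H143A libraries spread widely, at 12.4, 6.44, 9.04 and 18.9 CPM. With Tubastatin A the libraries were at 13.4, 14.3 and 12.7 CPM and with PCI-34051 at 15.5, 17.2 and 14.1 CPM. KDAC6H611A stood above every other group, KDAC8H143A and the inhibitor groups overlapped one another well above WT, and KDAC6H216A lay just below WT. The log2 fold changes against WT were 2.87 ± 0.17 (SE) in KDAC6H611A, 1.80 ± 0.14 with Tubastatin A and 2.02 ± 0.14 with PCI-34051.

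SEMA3C, a ligand that in many tumors promotes rather than restrains migration, was highest with Tubastatin A and lowest in KDAC8H143A. WT libraries were at 30.8, 28.5, 38.3 and 28.4 CPM, Tubastatin A libraries at 87.2, 88.5 and 90.9 CPM and PCI-34051 libraries at 67.0, 65.0 and 59.4 CPM. KDAC8H143A libraries were at 5.59, 9.01, 6.05 and 4.65 CPM. KDAC6H216A (29.5 to 48.0 CPM) and KDAC6H611A (30.1 to 49.4 CPM) overlapped each other and WT. The log2 fold changes against WT were 1.38 ± 0.07 (SE) with Tubastatin A, 0.92 ± 0.08 with PCI-34051 and 0.35 ± 0.14 in KDAC6H611A.

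SEMA3A, the prototype axon repellent, separated the inhibitors. WT libraries were at 12.2, 12.2, 11.9 and 12.6 CPM, KDAC6H611A libraries at 27.3, 18.5, 30.4 and 19.7 CPM, Tubastatin A libraries at 16.2, 15.3 and 16.6 CPM and PCI-34051 libraries at 9.105, 10.8 and 10.8 CPM. The KDAC6H611A and Tubastatin A libraries were all above WT and the PCI-34051 libraries all below it. The log2 fold changes against WT were 1.00 ± 0.16 (SE), 0.28 ± 0.09 and -0.35 ± 0.11, and the last changed sign when libraries were scaled by total count. SEMA3D, a relative of SEMA3A encoded 502.8 kb away, was at 4.17 to 5.38 CPM in WT, 2.37 to 2.90 CPM in KDAC6H611A, 4.88 to 6.17 CPM with Tubastatin A and 2.99 to 3.90 CPM with PCI-34051. KDAC6H611A and PCI-34051 libraries were below all WT libraries, with log2 fold changes of -0.79 ± 0.22 and -0.47 ± 0.19 resting on as few as 15 counts in a library.

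NRP1, the most abundant of the receptors per kb in WT, was highest after the inhibitors. WT libraries were at 550, 568, 576 and 530 CPM, Tubastatin A libraries at 983, 974 and 979 CPM and PCI-34051 libraries at 1159, 1175 and 1154 CPM. These groups did not overlap, and the log2 fold changes against WT were 0.70 ± 0.04 (SE) and 0.96 ± 0.05. KDAC6H611A libraries, at 601, 477, 794 and 677 CPM, overlapped WT. NRP2, the SEMA3F receptor, was at 165, 182, 187 and 177 CPM in WT and at 113, 87.9, 139 and 116 CPM in KDAC6H611A. Thus in KDAC6H611A, where SEMA3F was highest, every library was below WT for NRP2, with a log2 fold change of -0.62 ± 0.11. With the inhibitors NRP2 lay above WT instead, at 273, 252 and 255 CPM with Tubastatin A (0.43 ± 0.05 on the log2 scale) and at 223, 236 and 239 CPM with PCI-34051 (0.29 ± 0.06).

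PLXNA1, a signaling partner of the neuropilins, went the other way from the remaining receptors after the inhibitors. WT libraries were at 396, 435, 418 and 439 CPM, KDAC6H611A libraries at 319, 297, 325 and 345 CPM, Tubastatin A libraries at 267, 252 and 271 CPM and PCI-34051 libraries at 291, 296 and 297 CPM. All libraries of the 3 groups were below WT, with log2 fold changes of -0.36 ± 0.09 (SE), -0.79 ± 0.05 and -0.62 ± 0.05. PLXND1 libraries were at 32.7, 38.6, 38.5 and 37.3 CPM in WT, at 47.7, 42.0, 50.8 and 51.9 CPM in KDAC6H611A, at 58.6, 56.7 and 55.7 CPM with Tubastatin A and at 57.4, 66.2 and 59.9 CPM with PCI-34051. All were above WT, by 0.41 ± 0.09, 0.51 ± 0.05 and 0.63 ± 0.06 on the log2 scale. PLXNB2 was at 211 to 251 CPM in WT, 248 to 362 CPM in KDAC6H611A, 345 to 359 CPM with Tubastatin A and 387 to 402 CPM with PCI-34051, so that the KDAC6H611A libraries overlapped WT and the inhibitor libraries did not.

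**Figure D2:**
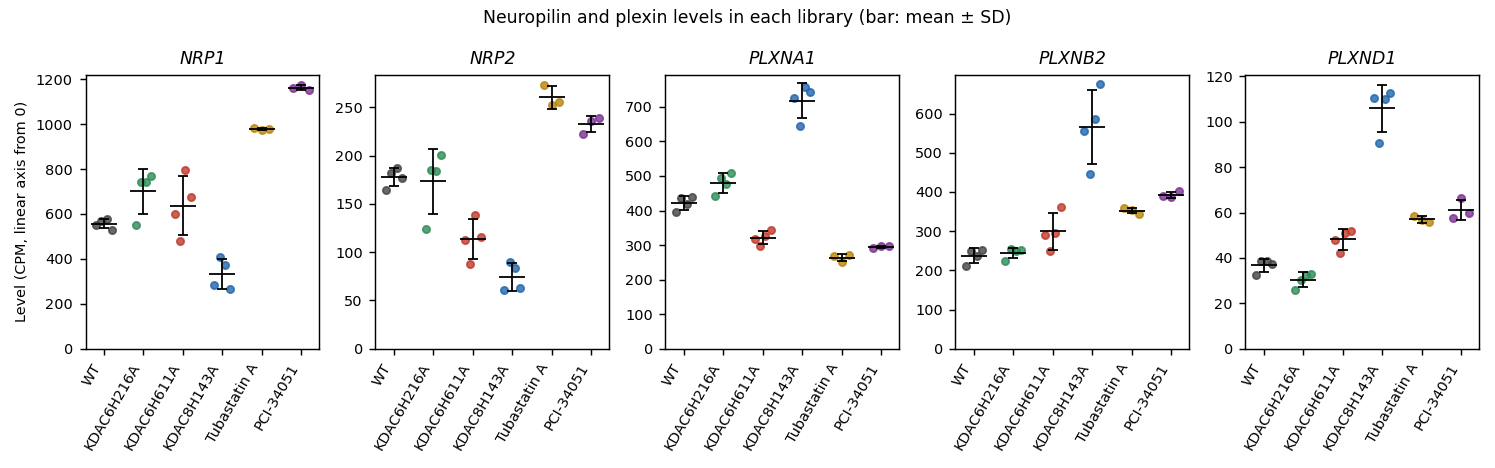
Level of each neuropilin and plexin in CPM (linear axis from 0) in every library, by group, with points for libraries and bars for the mean ± SD. PLXNA1 was below WT in KDAC6H611A and both inhibitor groups, while NRP1 reached 1163 CPM with PCI-34051, and the 3 plexins were highest in KDAC8H143A.

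Past an adjusted p of 0.01 in edgeR's quasi-likelihood test, adjusted by the Benjamini-Hochberg method over all genes tested, were 4 members higher and 1 lower in KDAC6H611A (all genes: 6.08% higher, 6.24% lower). With Tubastatin A they were 8 higher and 1 lower (29.3% and 28.6%), and with PCI-34051 7 higher and 1 lower (25.5% and 25.6%). Nothing is read from these counts, since the members were listed for these comparisons, which also share the WT libraries. Scaling by total count left 3 higher and 0 lower in KDAC6H611A, and DESeq2 gave 4 higher and 2 lower. Without KDAC6H611A replicate 4, log2 fold changes of the members in that line moved by at most 0.099, and 3 were higher and 1 lower. Mean levels there without that library were 25.4 ± 6.17 CPM (SD, n = 3) for SEMA3A, 24.3 ± 2.74 CPM for SEMA3B, 113 ± 25.6 CPM for NRP2, 314 ± 14.6 CPM for PLXNA1 and 46.9 ± 4.48 CPM for PLXND1. PLXND1 in KDAC6H611A passed in 2 of 8 fits without 1 library and SEMA3A with Tubastatin A in 1 of 7. The inhibitor libraries held 24315844 counts or more against at most 8998521 in WT and almost no mitochondrial rRNA, so treatment, depth and library composition cannot be told apart there.

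**Figure D3:**
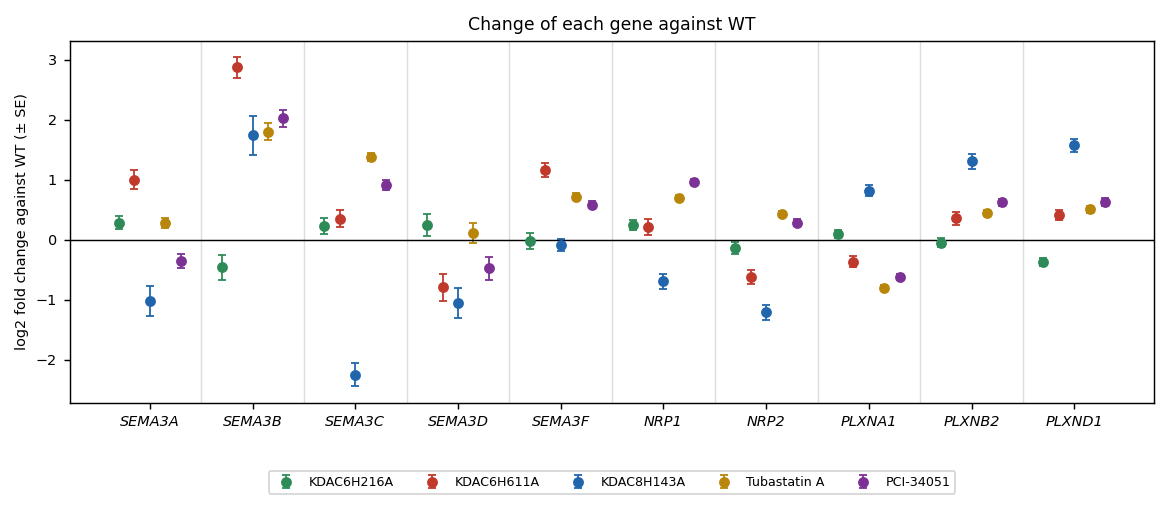
Log2 fold change against WT (± SE) of each gene in the 3 mutant lines and with the 2 inhibitors, fitted separately for each comparison. SEMA3B had the highest values (2.87 in KDAC6H611A), SEMA3C in KDAC8H143A the lowest (-2.24), and the KDAC6H216A points lay between -0.46 and 0.28.

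The first comparison that the choice of genes did not use asks whether the other KDAC6 domain mutant changed the same ligands and receptors. In KDAC6H216A cells 0 of 10 members passed against WT, beside 0.214% of 14500 genes higher and 0.621% lower. SEMA3F had a log2 fold change of -0.02 ± 0.13 (SE), with a 95% interval from -0.31 to 0.27, and its sign changed with DESeq2 (0.011) and with total count scaling (0.14). Members with an unadjusted p under 0.05 numbered 3, and DESeq2 called 0. They were PLXND1 at -0.37 ± 0.07 (adjusted p = 0.028), NRP1 at 0.24 ± 0.08 (adjusted p = 0.22) and SEMA3A at 0.28 ± 0.11 (adjusted p = 0.30). NRP1 libraries were at 552, 743, 742 and 767 CPM and PLXND1 libraries at 25.7, 30.3, 32.3 and 33.1 CPM, with replicate 1 lowest for both. Without KDAC6H216A replicate 1, NRP1 rose by 0.29 ± 0.05 (adjusted p = 0.00014) and PLXND1 fell by 0.35 on the log2 scale (adjusted p = 0.00092), beside 12.2% of all genes higher and 13.8% lower. SEMA3F was then at 33.7 ± 3.23 CPM (SD, n = 3) against 28.7 ± 1.75 CPM in WT (n = 4), 0.09 ± 0.08 higher on the log2 scale (adjusted p = 0.40). The other 7 members did not pass without that library either, with log2 fold changes from -0.49 (SEMA3B) to 0.34 (SEMA3A).

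The mutants of the KDAC6 domains were also set against each other. This comparison reuses the KDAC6H611A libraries that the choice of genes used, so its values and adjusted p are a description. SEMA3B was higher in KDAC6H611A than in KDAC6H216A by 3.30 ± 0.17 (SE) on the log2 scale (edgeR adjusted p = 3.5e-06) and PLXND1 by 0.75 ± 0.09 (adjusted p = 0.00028). PLXNA1 differed by -0.49 ± 0.10 (adjusted p = 0.007) and SEMA3D differed by -1.06 ± 0.20 (adjusted p = 0.0055). SEMA3F, the gene that the choice rested on, is given without an adjusted p, at 1.15 ± 0.16. With it, 3 members were higher and 2 lower, beside 4.61% and 5.31% of all genes. NRP2 (-0.52 ± 0.14), SEMA3A (0.69 ± 0.17), PLXNB2 (0.38 ± 0.11), NRP1 (-0.05 ± 0.15) and SEMA3C (0.09 ± 0.14) did not pass. The SEMA3B difference held in all 8 fits that left out 1 library, while PLXNA1 and SEMA3D passed only in the fit without KDAC6H216A replicate 1, with adjusted p of 0.0061 to 0.033 and 0.0025 to 0.026 over the 8 fits. NRP2 also passed without KDAC6H216A replicate 1, at -0.62 (adjusted p = 0.0043). Total count scaling gave 2 higher and 0 lower, and upper quartile scaling 4 higher and 1 lower.

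In the catalytic mutant of KDAC8, 9 of 10 members passed, in both directions. The KDAC8H143A libraries held 11010779 counts or more and at most 0.0259% mitochondrial rRNA. WT libraries held at most 8998521 counts and 20.8% to 23.9%, so line, depth and library composition cannot be told apart in this comparison. In KDAC8H143A against WT all 3 plexins rose, with PLXND1 at 1.57 ± 0.11 (SE) on the log2 scale, PLXNB2 at 1.305 ± 0.13 and PLXNA1 at 0.82 ± 0.10. Their libraries were at 110, 90.4, 110 and 113 CPM for PLXND1, at 447 to 676 CPM for PLXNB2 and at 724, 645, 757 and 744 CPM for PLXNA1, all above WT. Both neuropilins fell, NRP1 to 284, 407, 372 and 267 CPM (-0.69 ± 0.13) and NRP2 to 61.0, 90.1, 83.2 and 62.7 CPM (-1.21 ± 0.13), all below WT. Of the ligands SEMA3C (-2.24 ± 0.19), SEMA3D (-1.05 ± 0.25) and SEMA3A (-1.02 ± 0.25) fell and SEMA3B rose (1.74 ± 0.32). SEMA3A libraries were at 4.17, 8.76, 3.56 and 6.45 CPM and SEMA3D libraries at 1.495 to 2.71 CPM. SEMA3F did not pass, at -0.09 ± 0.10 (95% interval -0.31 to 0.12), with libraries on both sides of the lowest WT library. Adjusted p by edgeR was at most 0.0031 for the 9 genes that passed, of which 4 were higher and 5 lower, beside 31.6% of 16101 genes higher and 26.9% lower. Under total count scaling 4 were higher and 2 lower, as NRP1, SEMA3A and SEMA3D no longer passed. Without KDAC8H143A replicate 1, SEMA3A was at -0.90 (adjusted p = 0.011).

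Direction and base composition of the transcripts went together here, among the members as among all genes. GC content of the longest transcript was 36.7% to 50.4% in the 5 members that fell and 62.1% to 64.8% in the 4 that rose. Over all genes, 58.8% of the 2729 with under 40% GC were lower and 4.36% higher, while of the 2149 at 60% or more 3.26% were lower and 72.6% higher. When the fit was corrected for GC content and length, SEMA3A (-0.16 ± 0.21 SE, adjusted p = 0.53) and SEMA3D (-0.16 ± 0.23, adjusted p = 0.57) no longer passed, and PLXNA1 changed sign to -0.20 ± 0.11 (adjusted p = 0.12). SEMA3B went to 0.59 ± 0.22 (adjusted p = 0.033) and also lost its call. SEMA3C (-1.32 ± 0.13), NRP2 (-1.47 ± 0.13), NRP1 (-0.48 ± 0.11), PLXND1 (0.54 ± 0.10) and PLXNB2 (0.30 ± 0.08) kept direction and call, and SEMA3F, at 61.7% GC, became lower at -0.92 ± 0.14 (adjusted p = 0.00012). After correction 27.1% of all genes were higher and 20.5% lower.

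**Figure D4:**
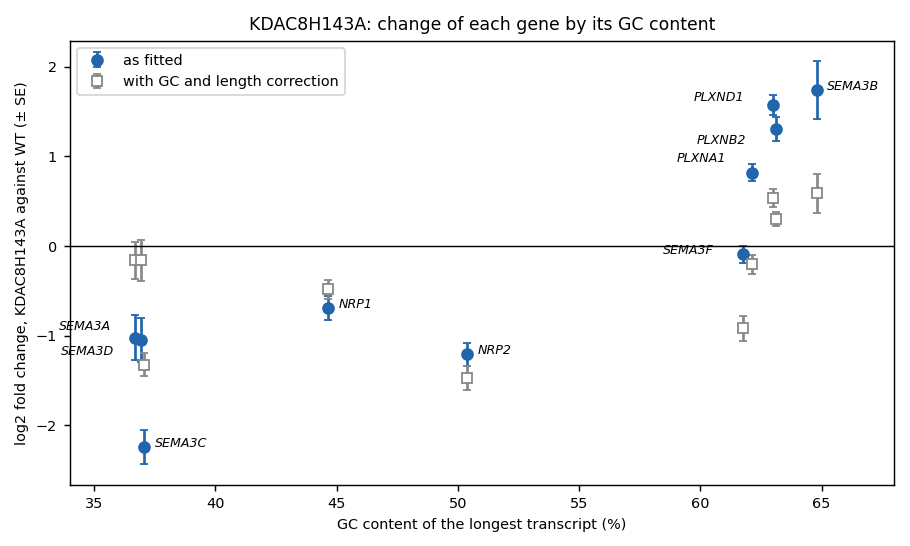
Log2 fold change (± SE) in KDAC8H143A against WT of each gene plotted against the GC content of its longest transcript, as fitted (filled circles) and with a correction for GC content and length (open squares). As fitted, the 3 genes under 40% GC lay at -1.02 or lower and 4 of 5 above 60% GC at 0.82 or higher, and the correction drew these towards or past 0 while SEMA3F moved to -0.92.

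The inhibitor groups were compared directly, without the WT libraries. This comparison reuses the inhibitor libraries that the choice of genes used, so its values and adjusted p are a description. Doses differed (1 µM Tubastatin A, 5 µM PCI-34051), so compound and dose cannot be told apart. SEMA3A was higher with Tubastatin A by 0.63 ± 0.09 (SE) on the log2 scale (edgeR adjusted p = 0.00044) and SEMA3C by 0.46 ± 0.05 (adjusted p = 1.4e-05), while NRP1 was lower at -0.26 ± 0.03 (adjusted p = 9.5e-05). For each of them the 3 libraries of 1 inhibitor did not overlap the 3 of the other. The same held for NRP2, PLXNA1, PLXNB2, SEMA3D and SEMA3F, which did not pass, so such separation does not mark out the genes that passed. The share of all genes without such overlap was not computed. The count was 2 members higher and 1 lower, beside 3.45% and 2.2% of 18409 genes. Scaling by total count or upper quartile gave 2 higher and 3 lower, as PLXNA1 and PLXNB2 then passed, and DESeq2 gave 3 higher and 3 lower. A single fit over all 6 groups, which shares the wider spread of the mutant lines, called none, with adjusted p of 0.51 for SEMA3A, 0.63 for SEMA3C and 0.97 for NRP1. SEMA3F, the gene that the choice rested on, is given without an adjusted p, at 0.13 (95% interval 0.019 to 0.25). NRP2 differed by 0.15 (0.04 to 0.25, adjusted p = 0.063). SEMA3D was at 0.58 (0.25 to 0.92, adjusted p = 0.024), SEMA3B at -0.23 (-0.42 to -0.032, adjusted p = 0.12), PLXNA1 at -0.18 (-0.27 to -0.081), PLXNB2 at -0.17 (-0.27 to -0.08) and PLXND1 at -0.12 (-0.23 to -0.0052). Each of these 95% intervals, which are not adjusted for the number of genes tested, kept a single sign, though none of these genes passed.

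**Figure D5:**
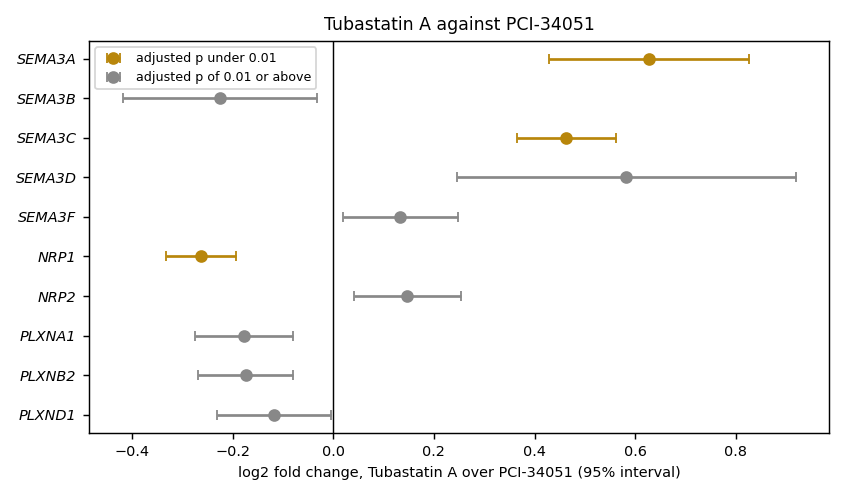
Log2 fold change of each gene with Tubastatin A over PCI-34051, with its 95% interval, colored by whether the adjusted p was under 0.01. SEMA3A (0.63) and SEMA3C (0.46) lay to the right of 0 and NRP1 (-0.26) to the left with the threshold passed, and SEMA3D had the widest interval.

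A further 68 genes of the pathway were followed in 6 lists: other semaphorins, other plexins, co-receptors and alternative receptors, other neuropilin ligands, proprotein convertases and intracellular effectors. In KDAC6H611A, 4 of 55 tested were higher and 10 lower than in WT, beside 6.08% and 6.24% of all genes, with a median log2 fold change of -0.08 against 0.03 over all genes. SEMA3G, a class 3 ligand of NRP2, rose from 0.833 to 3.86 CPM (2.19 ± 0.35 SE) and PLXNB1, the receptor of SEMA4D, from 34.4 to 66.1 CPM (0.97 ± 0.13). SEMA3G did not pass the low-count filter in KDAC6H216A against WT. It entered here through its KDAC6H611A level, so its rise and its place among the 4 higher are a description. SEMA5A fell from 27.7 to 8.19 CPM (-1.71 ± 0.15) and PLXNA2, a partner of the neuropilins, from 155 to 59.0 CPM (-1.37 ± 0.09). The 6 of 26 tested intracellular effectors that passed were all lower, among them the collapsin response mediators DPYSL2 (-0.76 ± 0.12) and DPYSL3 (-0.64 ± 0.14). Scaling by total count left 2 higher and 4 lower. In KDAC6H216A the count was 1 of 53, PLXNA4, a SEMA3A receptor, which rose from 158 to 263 CPM (0.64 ± 0.09, adjusted p = 0.0043), beside 0.214% of all genes higher and 0.621% lower. Without KDAC6H216A replicate 1, 6 of 53 were higher and 6 lower, beside 12.2% and 13.8% of all genes, and without any of the other 7 libraries the count was 0.

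In KDAC8H143A, 18 of 55 pathway genes were higher and 18 lower than in WT, and 23 and 9 under total count scaling, beside 31.6% and 26.9% of all genes, and with the GC and length correction 9 were higher and 25 lower, beside 27.1% and 20.5%. Of the 36 genes that passed as fitted, 12 lost their call with the correction and 5 changed sign, of which SEMA6B passed as higher before it (0.56 ± 0.13 SE) and as lower after it (-1.34 ± 0.15). The plexins PLXNB3 (2.41 ± 0.25 SE), PLXNB1 (1.93 ± 0.18) and PLXNA3 (1.57 ± 0.19) rose and PLXNA4 fell (-0.72 ± 0.12), so 3 of the 6 other plexins rose. With the correction they were at 1.21 ± 0.14, 0.89 ± 0.09, 0.81 ± 0.13 and -1.22 ± 0.15 and still passed, and PLXNA2 newly passed as lower (-0.47 ± 0.08). SEMA6C, a transmembrane semaphorin, rose from 1.81 to 10.6 CPM (2.61 ± 0.32, or 1.58 ± 0.28 corrected). The receptor tyrosine kinase MET, which associates with plexins, fell from 221 to 54.7 CPM (-1.96 ± 0.22, or -1.56 ± 0.17 corrected), and FES, a tyrosine kinase acting below plexin A receptors, from 5.08 to 0.867 CPM (-2.54 ± 0.34, or -3.39 ± 0.31 corrected). Of the 4 tested co-receptors and alternative receptors 3 fell (MET, ITGB1 and ITGA1) and 0 rose, and ITGA1 lost its call with the correction (-0.30 ± 0.18).

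With Tubastatin A, 28 of 57 pathway genes were higher and 12 lower than in WT (43 and 4 under total count scaling), beside 29.3% and 28.6% of all genes, and with PCI-34051 26 and 11 (42 and 2), beside 25.5% and 25.6%. Median log2 fold changes were 0.23 and 0.21, against -0.0029 and -0.0071 over all genes. With Tubastatin A the adhesion molecule L1CAM, a co-receptor of NRP1, went from 0.381 to 3.24 CPM (2.90 ± 0.35 SE) and the small GTPase MRAS from 1.35 to 5.28 CPM (1.80 ± 0.24). With PCI-34051 L1CAM reached 1.63 CPM (1.93 ± 0.42) and MRAS 4.34 CPM (1.53 ± 0.26). L1CAM passed the low-count filter only in comparisons with inhibitor libraries, where it is high, so its values are a description. VEGFA, a growth factor bound by NRP1, went from 173 to 584 CPM with PCI-34051 (1.66 ± 0.07) and to 482 CPM with Tubastatin A (1.37 ± 0.05). PLXNA2 fell with both, at -0.83 ± 0.05 and -0.88 ± 0.05, as did FES, at -0.83 ± 0.18 and -0.61 ± 0.18. Of 5 tested co-receptors and alternative receptors, 4 rose and 0 fell with each inhibitor (L1CAM, ITGA1, ITGB1 and MET). L1CAM is among the 5 only through its level with the inhibitors. Between the inhibitors 7 of 60 were higher with Tubastatin A and 2 lower (5 and 3 under total count scaling), beside 3.45% and 2.2% of all genes, with VEGFA among those lower (-0.29 ± 0.05). Between the KDAC6 mutants 4 of 56 were higher in KDAC6H611A and 8 lower (1 and 4 under total count scaling), beside 4.61% and 5.31% of all genes.

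The genes whose levels most resembled those of SEMA3F over the 22 libraries were ADGRE5, PLPPR2, SDC3, P3H2 and RNASET2, of 15636 genes compared. Pearson's r of log2 CPM was 0.955, 0.943, 0.943, 0.94 and 0.94, and over the 6 group means 0.973, 0.976, 0.963, 0.964 and 0.97. These values describe libraries that share groups, depth and composition, and carry no test.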

How the data were processed

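HT1080 RNA-seq was analyzed in 22 libraries of 6 groups, which the study's methods call biological replicates. Per the labels and the study's methods, the authors depleted rRNA, trimmed paired reads with Trimmomatic 0.39, aligned them with Bowtie2 2.4.5 and estimated counts with RSEM 1.3.3 on GRCh38. The annotation release and strand setting are not given in the sources used here. The deposited values are expected counts per gene, not normalized, in which shared reads are divided among genes and need not be whole. The submitters' processing notes also name DESeq2 1.38.2.

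Expected counts were rounded and filtered with edgeR 4.0.16 (filterByExpr, TMM scaling, quasi-likelihood F test, R 4.3.3) on the libraries of each comparison, with Benjamini-Hochberg adjustment over all genes and a threshold of 0.01. A log2 fold change above 0 means higher in the group named first. CPM were scaled by TMM over the 22 libraries. The GC and length correction was an offset per gene and library from a smooth (mgcv 1.9.3). Alternatives were DESeq2 1.42.0, upper quartile and total count scaling, no filter, 10 counts in every library, 1 fit over all groups, a replicate block, thinned counts, a threshold of 0.05 and leaving out each library. The scripts were checked on simulated counts with 200 changed genes. No 2 libraries of the same group agreed within sampling noise. Positions, exon lengths and GC content came from GENCODE 44 (56558 of 60675 rows matched) and promoter sequences from RefSeq (GRCh38.p14). Pathway genes were named by a rule: in each comparison with WT the 2 highest and 2 lowest log2 fold changes among those passing at 1 CPM or more in the higher group without overlap of the groups. Not every gene that this rule names is reported here. Others were named after their values were seen. The members and lists were chosen with earlier results of these data known.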

Additional observations from a re-analysis of the deposited data

Results flagged for a closer look

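A single library stood apart in 3 of the 40 sets of 4 libraries examined (10 genes in the 4 groups of that size), and chance flags about 1 in 20. SEMA3F was lowest in WT replicate 1, at 26.1 CPM against 29.5 to 29.7 CPM in the others. NRP1 was lowest in KDAC6H216A replicate 1, at 552 CPM against 742 to 767 CPM. PLXND1 was lowest in KDAC8H143A replicate 2, at 90.4 CPM against 110 to 113 CPM. WT replicate 1 had the smallest total of all libraries (5248960 expected counts) and KDAC6H216A replicate 1 the mitochondrial rRNA share of 0.195%, and the part of either in these values was not tested.

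Levels differed between the inhibitors for SEMA3A (log2 difference 0.63), SEMA3C (0.46) and NRP1 (-0.26). Between the KDAC6 domain mutants they differed for SEMA3B (3.30), PLXND1 (0.75), PLXNA1 (-0.49) and SEMA3D (-1.06). Each had an edgeR adjusted p under 0.01 in the direct comparison. Both comparisons reuse libraries that the choice of genes used, those of KDAC6H611A or of the inhibitors, so their values are a description. The inhibitor differences did not pass in a single fit over all 6 groups. PLXNA1 and SEMA3D passed in 1 of 8 fits that left out 1 library, and under total count scaling PLXND1 (adjusted p = 0.070), PLXNA1 (adjusted p = 0.14) and SEMA3D did not pass.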

How the results depend on the processing

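Of 1290 alternative values for single members, 1164 kept direction and side of the threshold, 66 fell short of it, 40 newly passed it and 20 changed sign. Scaling by total count in place of TMM shifted all genes in the median by over 0.1 on the log2 scale, from 0.0035 to 0.17 (KDAC6H216A), 0.076 to 0.36 (KDAC8H143A), -0.0029 to 0.35 (Tubastatin A), -0.0071 to 0.38 (PCI-34051) and 0.011 to -0.12 (KDAC6H611A against KDAC6H216A), so members' changes there are relative to that shift. Where an alternative gave another value, the cause was not tested. Members passing against WT in KDAC6H216A went from 0 to 1 with total count scaling and to 1 at an adjusted p of 0.05, and ranged from 0 to 2 without 1 library. In KDAC6H611A they went from 5 to 3 (total count) and 8 (0.05). Tubastatin A against PCI-34051 gave 3 members, but 6 with DESeq2, 5 with upper quartile, 5 with total count, 0 with all 6 groups in 1 fit and 6 at 0.05. KDAC6H611A against KDAC6H216A gave 5, but 2 with total count and 8 at 0.05, and 6 without KDAC6H216A replicate 1 but 3 without any other library. Pathway genes in KDAC6H216A went from 1 to 2 (1 fit over all groups) and 3 (0.05), and ranged from 0 to 12 without 1 library. In KDAC6H611A they went from 14 to 6 (total count). Between the inhibitors they went from 9 to 0 (1 fit over all groups) and 4 (thinned to the smallest total), and ranged from 3 to 8 (3 without Tubastatin A replicate 1 or 3, 4 without its replicate 2, 5 without PCI-34051 replicate 1). Between the KDAC6 mutants they went from 12 to 5 (total count), 22 (1 fit over all groups) and 7 (thinned), and were 5 without KDAC6H611A replicate 1, 6 without its replicate 4 or KDAC6H216A replicate 2, 3 or 4, and 18 without KDAC6H216A replicate 1.

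Sign changes were as follows, and none of the values with the changed sign passed. In KDAC6H216A it was SEMA3F with DESeq2 (0.011), total count (0.14), no filter (0.020), all groups in 1 fit (0.0803) and without KDAC6H216A replicate 1 (range without 1 library -0.117 to 0.091), NRP2 with total count (0.029), and PLXNB2 with total count (0.13) and all groups in 1 fit (0.0403). In KDAC8H143A it was SEMA3F with total count (0.196) and PLXNA1, which passed as reported, with the GC and length correction (-0.203). With Tubastatin A it was SEMA3D with that correction (-0.098), thinned (-0.018) and without Tubastatin A replicate 1 (range -0.0033 to 0.198), and with PCI-34051 SEMA3A with total count (0.037). Between the KDAC6 mutants it was SEMA3C with total count (-0.023) and without KDAC6H611A replicate 3 (range -0.018 to 0.168), and NRP1 with upper quartile (0.062) and without KDAC6H611A replicate 2 (range -0.155 to 0.035).

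Replicate numbers shared by the groups did not pair the libraries. Correlations of same-numbered deviations averaged -0.025 to 0.18 over the 7 comparisons with a lowest value of -0.35, and in no comparison did every library correlate best with its own number. With a replicate block, members passing between the KDAC6 mutants went from 5 to 3 (3 also with the GC and length correction), pathway genes there from 12 to 6 with that correction, and pathway genes in KDAC6H216A from 1 to 0 (0 with the correction). With block and correction PLXNA1 in KDAC8H143A was at -0.22 and SEMA3D with Tubastatin A at -0.16. With 20 to 38 counts in WT, SEMA3B and SEMA3D limit what depth can show.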

Other observations

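SEMA3F and SEMA3B lie in a gene-dense part of chromosome 3, and the genes around them were counted after the members' values were seen. Of the genes within 500 kb of the pair, 29 were tested in KDAC6H611A against WT, of which 8 were higher and 0 lower, beside 6.08% and 6.24% of all genes, with a median log2 fold change of 0.44. They were C3orf18 (3.64 ± 0.38 SE), DOCK3 (3.35 ± 0.26), HEMK1 (1.40 ± 0.16), BSN (1.29 ± 0.31), MST1 (1.20 ± 0.22), UBA7 (0.91 ± 0.11), NPRL2 (0.64 ± 0.12) and RNF123 (0.58 ± 0.10). DOCK3 is an exchange factor for the GTPase Rac and MST1 the ligand of the receptor MST1R. In KDAC6H216A 0 of 27 passed in either direction, and in KDAC8H143A 15 of 34 were higher and 2 lower, beside 31.6% and 26.9%. Those higher in KDAC8H143A included all the genes named for KDAC6H611A but DOCK3. They were at 2.17 (C3orf18), 1.76 (MST1), 1.41 (RNF123), 1.36 (BSN), 1.27 (HEMK1), 0.95 (UBA7) and 0.52 (NPRL2). Over all genes in KDAC8H143A, 4.36% of those under 40% GC and 72.6% of those at 60% or more were higher. The GC content of the genes in this stretch was not examined, and these values are without the GC and length correction.

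With the inhibitors, where SEMA3F and SEMA3B were higher, 3 of 28 genes of the same stretch were higher and 15 lower with Tubastatin A, beside 29.3% and 28.6%, and 2 and 12 with PCI-34051, beside 25.5% and 25.6%. DOCK3 was higher with both (1.10 ± 0.18 SE and 0.87 ± 0.21), and HEMK1 was lower with both (-0.41 ± 0.07 and -0.28 ± 0.08). The median log2 fold changes of the tested genes of the stretch were -0.35 and -0.30, against -0.0029 and -0.0071 over all genes in the same fits. Total count scaling puts the medians over all genes at 0.35 and 0.38, so these falls are relative to other genes. Their cause was not tested. Between SEMA3F and SEMA3B, 2 genes were tested. GNAI2, which encodes an inhibitory G protein subunit, was at 0.17 ± 0.05 (SE) with Tubastatin A and at 0.35 ± 0.14 in KDAC6H611A, where it did not pass. U73166.2 was at -1.06 ± 0.24 with Tubastatin A, where it passed, at -0.68 ± 0.22 with PCI-34051 and 0.61 ± 0.29 in KDAC6H611A, where it did not, and at 1.00 ± 0.24 in KDAC8H143A, where it passed.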
